A study of Homo sapiens with 12 samples.

Results

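Low-count circular RNAs (circRNAs) whose reads came from the IGF2BP2 precipitation of a single cell line were examined in MDA-MB-231, an established triple-negative breast cancer line. A circRNA was a member if its raw counts summed over the 6 libraries made with the IGF2BP2 antibody (RIP libraries) lay between 4 and 8 and all of them fell in the parental cells (Sens only) or all in the resistant cells (Res only). There were 234 members among 6384 circRNAs in the table, 58 Sens only and 176 Res only. The RIP counts chose the members. The RIP counts by line, and fitted values that use them, are therefore given as descriptions, and the comparison of the lines that is independent of the rule is that of the IgG controls.

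A circRNA is a closed transcript in which a downstream splice donor is joined back to an upstream acceptor, which leaves no free ends and makes many circRNAs long-lived. IGF2BP2 is an RNA-binding protein of the IGF2 mRNA-binding family, known for stabilising the mRNAs it binds and promoting their translation. RNA immunoprecipitation recovers RNA held by such a protein with an antibody, and normal IgG records what sticks without it.

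The Sens cells were labelled wild type and were untreated. The Res cells were derived from the same line, had established resistance to BET inhibitors (drugs against the bromodomain proteins that read acetylated histones) and stayed in the inhibitor until they were harvested, so resistance and exposure cannot be told apart. Each line was precipitated with an anti-IGF2BP2 monoclonal antibody or with normal rabbit IgG, in 3 libraries per combination, 12 in all. The labels do not say whether replicates were separate cultures, so p-values measure only the spread between these libraries, which may be technical. Nor do they say whether the resistant line is a single clone. The table holds circRNAs and ERCC spike-in transcripts, so neither IGF2BP2 nor markers of the line could be read, and it pairs no circRNA identifier with a gene or a sequence. No identifier matched the gene table used here (0 of 6384), so members are given by circBase-style identifier, a few per line.

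The RIP libraries held few circRNA counts, 4448 to 5561 each in Sens (14780 in all) and 5179 to 8662 in Res (19568 in all). The IgG libraries held 1960 to 2989 in Sens and 3860 to 6036 in Res. Sens therefore supplied 43.0% of the RIP circRNA counts. The RIP and IgG libraries differed in how their circRNAs recurred. Of 3487 circRNAs with a count in the Sens RIP, 64.8% were seen in a single library and 13.3% in all 3, and in the Res RIP the shares of 4274 were 62.0% and 16.3%. In IgG the pattern was the opposite, with 77.7% of 475 circRNAs in all 3 Sens libraries and 72.0% of 1243 in all 3 Res libraries.

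The first question was whether circRNAs confined to the RIP of a single line were more numerous than the sizes of the libraries give. If each count fell in Sens with a probability of 43.0%, the 945 circRNAs with RIP sums of 4 to 8 would include 17.6 with all counts in Sens and 61.3 with all in Res. The observed 58 Sens only circRNAs were 3.30 times that number, and the 176 Res only circRNAs were 2.87 times. Together 24.8% of the 945 were confined to a single line, against 8.34% expected. There were 3.03 Res only circRNAs for each Sens only circRNA. The line totals give 3.49, a value that moved with the totals and libraries used.

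The excess appeared at each sum in the window. At a sum of 4 there were 34 Sens only and 83 Res only circRNAs, against 12.8 and 39.2 expected. At a sum of 5 the numbers were 16 and 52, against 3.61 and 14.7. They were 5 and 19 at a sum of 6, 1 and 15 at 7, and 2 and 7 at 8, where 0.114 and 1.08 were expected. Just below the window, at a sum of 3, 86 and 216 circRNAs lay in a single line, against 47.4 and 110 expected. Just above it, at a sum of 9, 2 and 7 did. Members were thus mostly at the low edge, with 117 of the 234 at a sum of 4.

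**Figure D1:**
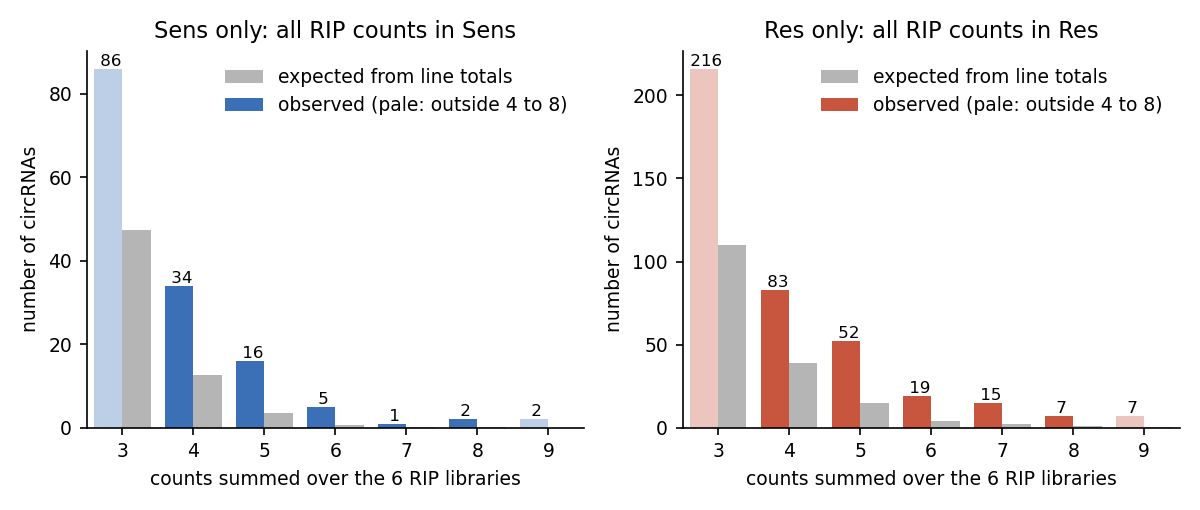
Numbers of circRNAs with all RIP counts in Sens (left) or in Res (right), by the sum of counts over the 6 RIP libraries. Coloured bars are observed and grey bars are expected from the RIP circRNA totals of the lines; observed bars exceed expected ones at every sum from 3 to 9, as at 4, with 34 against 12.8 in Sens and 83 against 39.2 in Res.

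The rest of the window lost circRNAs in the middle rather than next to the members. A single count in Sens with all others in Res was seen for 219 circRNAs, against 210.6 expected, and a single count in Res for 104, against 101.6. Only the evenly shared circRNAs, with at least 2 counts in each line, fell short, at 388 against 553.9. A member is separated from these near members by 1 read.

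**Figure D2:**
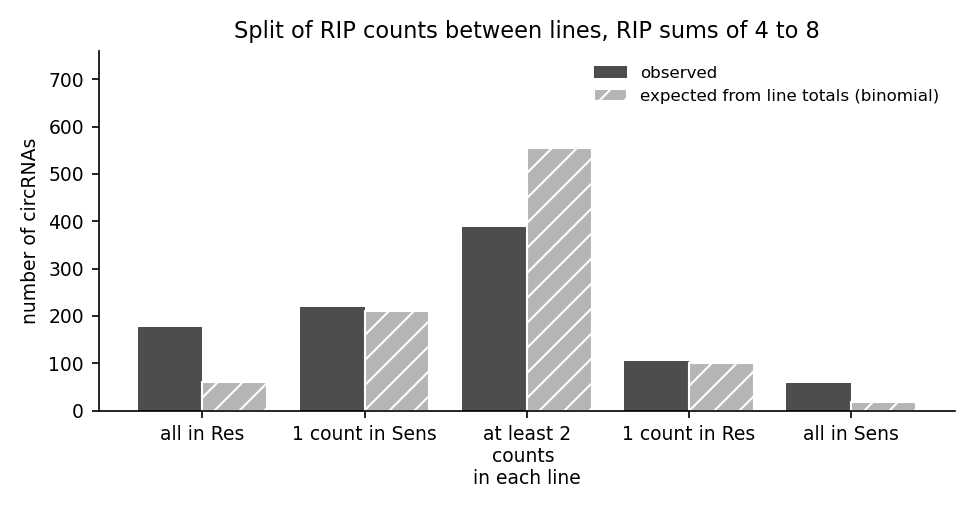
Numbers of the 945 circRNAs with RIP sums of 4 to 8 by how their counts divide between the lines, observed (dark bars) and expected from the line totals (hatched bars). Both ends stand above the expected numbers, 176 against 61.3 for Res and 58 against 17.6 for Sens, and the evenly shared class stands below, 388 against 553.9.

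These expected numbers moved with the totals they were taken from. hsa_circ_0001573 alone held 1724 of the Sens RIP counts (11.7%) and 20 of the Res RIP counts (0.102%). With it left out of the totals the Sens share was 40.0%, and the observed number was 4.52 times the expected one for Sens only and 2.27 times for Res only. The expected number of Res only circRNAs for each Sens only circRNA then rose from 3.49 to 6.03. The numbers of members also moved when a library was left out and the rule applied to the other 5. Without Sens RIP replicates 1, 2 and 3 there were 31, 20 and 31 Sens only circRNAs, at 7.47, 3.79 and 5.14 times the expected number, and 262, 231 and 239 Res only circRNAs. Without Res RIP replicates 1, 2 and 3 there were 99, 74 and 110 Res only circRNAs, at 3.94, 5.83 and 3.95 times the expected number, and 76, 94 and 71 Sens only circRNAs, at 2.26, 1.91 and 2.26 times. The number of Res only for each Sens only circRNA was highest without Sens RIP replicate 2, at 11.6 (20.1 expected), and lowest without Res RIP replicate 2, at 0.787 (0.258 expected). Without Sens RIP replicates 1 and 3 it was 8.45 and 7.71 (28.6 and 17.2 expected), and without Res RIP replicates 1 and 3 it was 1.30 and 1.55 (0.747 and 0.887 expected).

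Counts of a member were bunched within libraries. Of the 58 Sens only circRNAs, 9 had all their counts in a single library, 34 in a pair of libraries and 15 in all 3. The depths of the Sens libraries give 1.57, 25.5 and 30.9. Of the 176 Res only circRNAs, 27 were in a single library, 84 in a pair and 65 in all 3, where the depths give 5.49, 75.6 and 94.9. Single-library members were thus more frequent, at 15.5% and 15.3%, than the 2.71% and 3.12% that independent reads give, and members in all 3 libraries less frequent. The commonest arrangement of counts over a line's libraries was 3, 1 and 0, for 14 Sens only and 32 Res only circRNAs. A whole member could rest on its reads in 1 library, as for the 18 Res only circRNAs with 4, 0 and 0 and the 2 with 8, 0 and 0.

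When libraries with a count were taken as the unit in place of reads, the excess was smaller and uneven between the lines. Among the 945 circRNAs, the number of RIP libraries with a count was held as observed, and the libraries were drawn without replacement with each weighted by its odds of detecting a circRNA. This scheme, added after the data had been seen, gave 54.3 Sens only circRNAs, close to the 58 seen (1.07 times), and 109.9 Res only circRNAs, against the 176 seen (1.60 times). For circRNAs in a single library, 9 were Sens only against 14.7 expected and 27 were Res only against 21.3. In exactly 2 libraries the numbers were 34 against 28.5 and 84 against 57.6, and in exactly 3 they were 15 against 11.1 and 65 against 31.0. With each library as a draw with replacement the observed numbers were 0.579 and 0.965 of the expected ones, but that scheme allows a line more draws than its 3 libraries. The size of the excess therefore depended on the unit, and for Sens only circRNAs it was 3.30 times with reads and 1.07 times with libraries. The ratio of Res only to Sens only circRNAs, 3.03, likewise stood against 3.49 expected from reads, 6.03 from reads without hsa_circ_0001573, and 2.02 from libraries.

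The members were a small part of each RIP library. Sens only circRNAs had 76 counts in Sens RIP replicate 1, 113 in replicate 2 and 80 in replicate 3, and none in Res RIP by construction. These were 1.37%, 2.37% and 1.80% of the circRNA counts, a mean of 1.84% ± 0.503 (SD, n = 3). Replicate 2 was the highest although it was not the deepest of the 3. Res only circRNAs had 257, 390 and 220 counts in Res RIP replicates 1, 2 and 3, which were 4.49%, 4.50% and 4.25% of the circRNA counts, a mean of 4.41% ± 0.143 (SD, n = 3). Their share was even across the Res libraries, and replicate 2, the deepest library, had the most counts. It detected 150 of the 176, against 128 in replicate 1 and 112 in replicate 3.

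**Figure D3:**
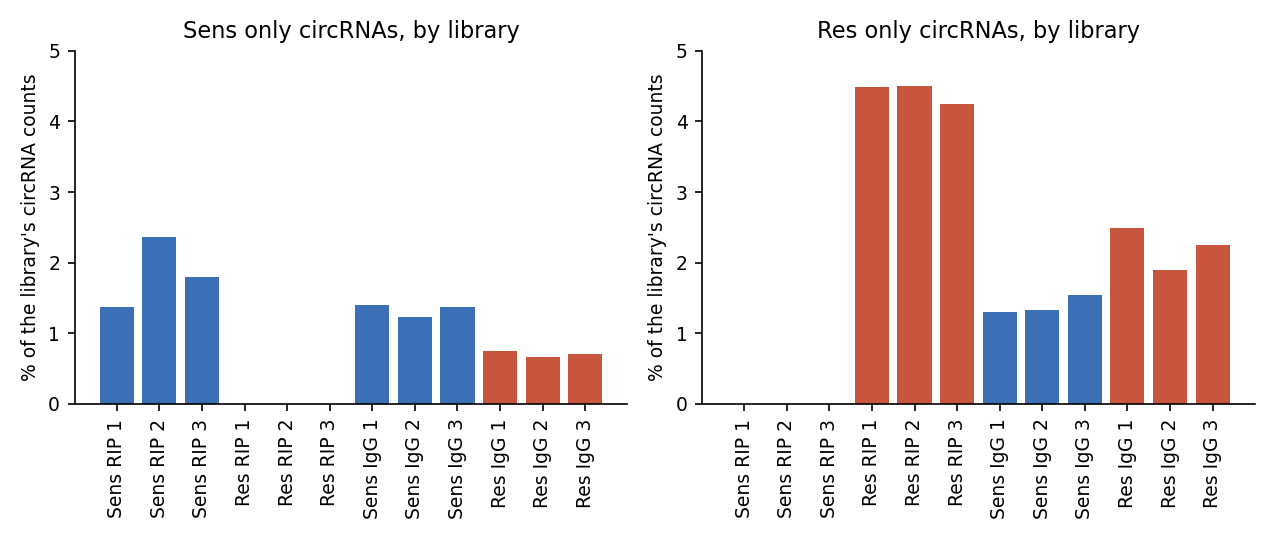
Share of each library's circRNA counts held by the 58 Sens only circRNAs (left) and the 176 Res only circRNAs (right), 1 bar per library, blue for Sens and red for Res. Res only circRNAs take 4.25% to 4.50% of the Res RIP libraries, Sens only circRNAs 1.37% to 2.37% of the Sens RIP libraries, and both sets also hold counts in the IgG libraries of both lines.

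The depth left little room to call any member absent from the other line. A sum of 0 allows up to 3 counts over a line's 3 libraries, which is 153 RPM (counts scaled to 1000000 circRNA counts) in the Res RIP and 203 RPM in the Sens RIP. Such limits speak of counting error alone, because reads that carry no molecular identifiers may be copies of a molecule. A member's own counts, which the rule chose, were taken as exact, so its ratio to the limit is not a lower bound on a difference. A Sens only circRNA with 4 counts stood at 271 RPM, 1.76-fold above the limit in the Res RIP. A Res only circRNA with 4 counts stood at 204 RPM, 1.01-fold above the limit in the Sens RIP. For these 83 circRNAs a difference was hardly detectable at this depth. At 8 counts the ratios to the limit were 3.53-fold for Sens only and 2.01-fold for Res only. Relative to the spike-in they were 1.25-fold and 1.42-fold at 4 counts, and 2.51-fold and 2.84-fold at 8.

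Among members with no IgG count and a count in all 3 RIP libraries of their line, those with the highest sums were as follows. hsa_circ_0030586 had 4, 2 and 2 counts in Sens RIP replicates 1, 2 and 3, and hsa_circ_0069226 had 1, 4 and 2. Both were at 0 in the other 9 libraries, at mean levels of 529 and 489 RPM in the Sens RIP. hsa_circ_0057690 had 2, 4 and 2 counts in the Res RIP, and hsa_circ_0024169 had 5, 2 and 1. Both were likewise at 0 elsewhere, at 399 and 432 RPM. The rule and the choice of these 4 fix that their own-line libraries lie above the other line's. The lowest own-line library had 1 count for hsa_circ_0069226 and hsa_circ_0024169.

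The contrast between the RIP groups used the same counts as the rule, so its fitted values are a description. Only members that reached 2 counts in 3 or more libraries of any kind entered the fit, 14 of 58 Sens only and 33 of 176 Res only. The edgeR quasi-likelihood test called 2.37% of the 1307 circRNAs tested between the RIP groups at an adjusted p under 0.05. Of the members tested, 2 Sens only circRNAs were called lower in Res, where 1.07% of all were, and no Res only circRNA was called (0 of 33 by edgeR and by DESeq2, 22 at an unadjusted p under 0.05 in edgeR), where 1.30% of all were called higher. DESeq2 called 0 of the 14 Sens only circRNAs, and edgeR with spike-in totals called 1 Sens only circRNA lower and 4 Res only circRNAs higher in Res, where 7 of all 1307 were called lower and 51 higher.

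Since the full rule cannot be tested on its own counts, the choice was repeated without 1 replicate number at a time and read in the pair of RIP libraries left out. This was added after the data had been seen. The sets chosen in the 3 rounds overlap, so the rounds are not independent. With replicate 1 left out, 37 circRNAs with sums of 4 to 8 over the other 4 libraries were Sens only. In the left-out libraries 12 of the 37 had a count in Sens and 6 had a count in Res. With replicate 2 left out the numbers were 18 and 15 of 35, and with replicate 3 they were 15 and 8 of 39. A circRNA chosen as absent from Res was thus detected there in 16.2%, 42.9% and 20.5% of cases. The highest of these shares came from Res RIP replicate 2, the deepest library. circRNAs of the same sums chosen with counts in both lines were detected in the left-out Res library in 59.88%, 74.95% and 49.11% of cases. Of all 6384 circRNAs, Res RIP replicates 1, 2 and 3 detected 2064, 2681 and 1847.

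The reverse choice gave the reverse pattern. Of 156 Res only circRNAs chosen without replicate 1, 83 had a count in the left-out Res library and 57 in the left-out Sens library. The numbers were 68 and 26 of 100 for replicate 2, and 75 and 48 of 158 for replicate 3. Chosen as absent from Sens, 36.5%, 26.0% and 30.4% were detected there. For circRNAs of the same sums chosen with counts in both lines, the shares detected in the left-out Sens library were 50.92%, 50.92% and 43.06%. Of all 6384 circRNAs, Sens RIP replicates 1, 2 and 3 detected 1908, 1681 and 1591.

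Pooled over the circRNAs chosen, counts in the left-out libraries leaned to the same line, though not exclusively. These choices used sums over 4 libraries and are not the same set as the 234 members. The spread between circRNAs was not computed. Few counts were read for the Sens only choices, 21 in Sens and 9 in Res for replicate 1. There were 40 and 32 for replicate 2, and 32 and 20 for replicate 3. Counts of the Sens only choices fell in the Sens library for 70.0%, 55.6% and 61.5%, when replicates 1, 2 and 3 were read, and those of the Res only choices for 35.4%, 15.5% and 35.6%. circRNAs of the same sums chosen with counts in both lines lay between, at 46.0%, 32.9% and 42.1%, near the 49.3%, 35.5% and 46.2% of all circRNA counts. The order of the 3 sets was the same in 3 of 3 rounds, which share libraries and circRNAs and so do not count as 3 results. Scaling could not alter the order, since the sets were read in the same pair of libraries. The left-out libraries may be technical replicates, so the lean is a description of these libraries. In RPM, with the counts of each library scaled to its circRNA total, the Sens only choices were 2.40, 2.27 and 1.86 times as high in Sens as in Res, and the Res only choices were 0.565, 0.334 and 0.644 times as high.

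**Figure D4:**
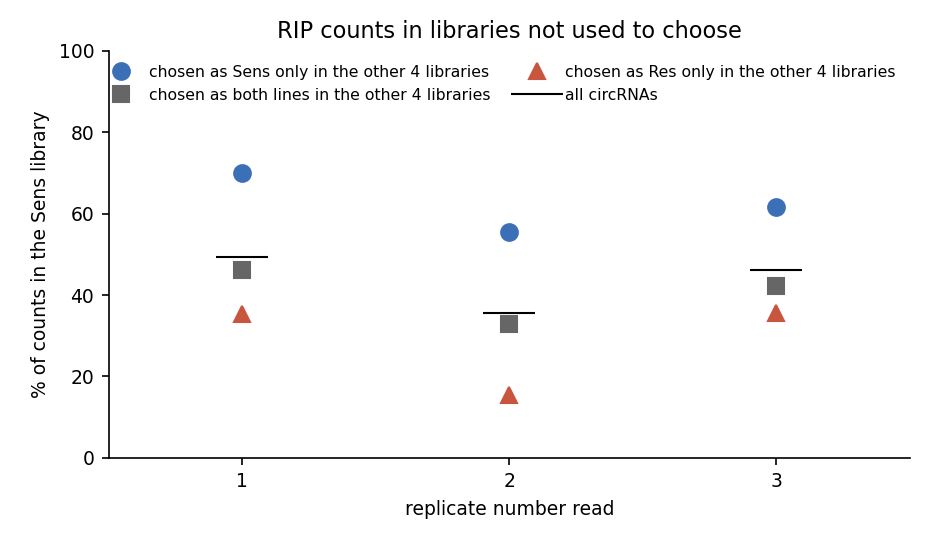
Share of RIP counts that fell in the Sens library of a replicate number, for circRNAs chosen in the RIP libraries of the other replicate numbers; the black dash is the share for all circRNAs. Sens only choices (blue circles, 55.6% to 70.0%) lie above, and Res only choices (red triangles, 15.5% to 35.6%) below, circRNAs chosen with counts in both lines (grey squares, 32.9% to 46.0%).

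The IgG libraries, which the rule did not use, give the background of the assay. Measured in the same way, 457 circRNAs had IgG sums of 4 to 8 over the 6 IgG libraries. Of these, 82 had all counts in Sens IgG and 371 in Res IgG, where 1.61 and 43.2 were expected from the IgG totals. A single line thus held all counts for 99.1% of low-count circRNAs in IgG, against 24.8% in the RIP. The window can raise that share. The commonest sum over a line's 3 libraries was 7 in IgG and 1 in the RIP, so a circRNA present in the IgG of both lines would often sum above 8. Over all sums, 322 circRNAs had counts in Sens IgG alone, 1090 in Res IgG alone and 153 in the IgG of both lines. Without the window, too, most circRNAs seen in IgG were thus seen in a single line.

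Most members were not seen in IgG. No IgG library held a count for 43 of the 58 Sens only circRNAs (74.1%) and 146 of the 176 Res only circRNAs (83.0%). The share was 75.5% of all 6384, and 73.0% of the 711 circRNAs of the same RIP sums with counts in both lines. Sens only circRNAs had a count in Sens IgG for 6 of 58 (10.3%) and in Res IgG for 11 of 58 (19.0%). Res only circRNAs had one in Sens IgG for 9 of 176 (5.11%) and in Res IgG for 26 of 176 (14.8%). Of all circRNAs 7.44% were seen in Sens IgG and 19.5% in Res IgG. Both sets were thus seen more often in Res IgG than in Sens IgG, the order that all circRNAs showed. Of the 711 circRNAs of the same RIP sums with counts in both lines, 8.44% were seen in Sens IgG and 22.5% in Res IgG.

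**Figure D5:**
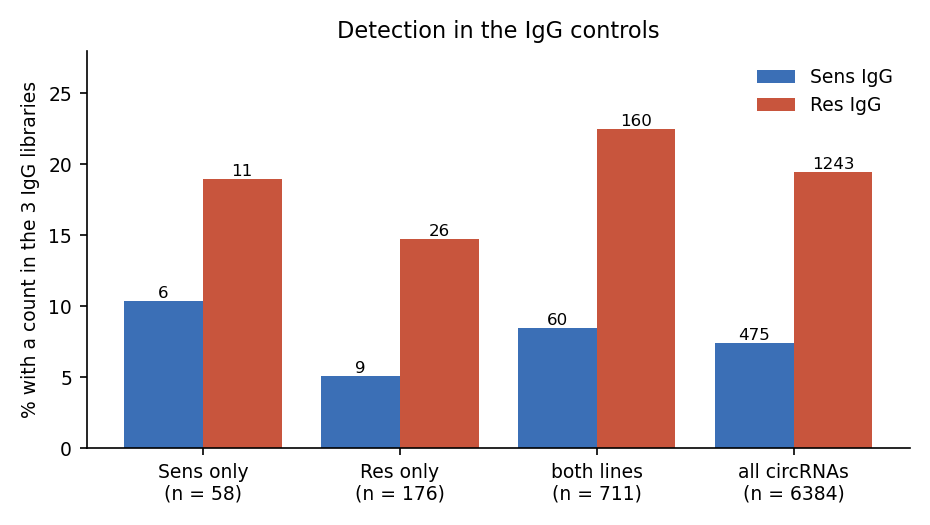
Share of circRNAs with a count in the 3 Sens IgG (blue) or 3 Res IgG (red) libraries, for the members, for circRNAs of the same RIP sums in both lines, and for all circRNAs, with the number detected above each bar. Each set is detected more often in Res IgG, as in 11 of 58 Sens only circRNAs against 6 in Sens IgG.

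Where a member was present in IgG, it mostly recurred across libraries. The 6 Sens only circRNAs in Sens IgG had sums of 11 to 30 (median 15.5), and all 6 were in all 3 libraries. The 26 Res only circRNAs in Res IgG had sums of 1 to 41 (median 9.5), 21 of them in all 3 libraries. In the other line's IgG, the 11 Sens only circRNAs in Res IgG had sums of 1 to 30 (median 7.0), and the 9 Res only circRNAs in Sens IgG sums of 6 to 29 (median 8.0). The medians in the own line's IgG lie above the 4 to 8 RIP counts that define a member. This was not particular to members. The medians of circRNAs of the same RIP sums with counts in both lines also lay above 8 in each line's IgG. Summed over its 3 libraries, each line's IgG held fewer circRNA counts than its RIP but many more ERCC counts. Relative to the spike-in, all Sens only circRNAs together held 139 counts per 1000 ERCC counts in the Sens RIP and 0.294 in Sens IgG. Res only circRNAs held 471 in the Res RIP and 1.51 in Res IgG. This gap was not particular to members either. circRNAs of the same RIP sums with counts in both lines held 833 and 2.48 in Sens, and 1203 and 8.72 in Res. All circRNAs together had 14780 counts beside 1969 ERCC counts in the Sens RIP, and 7794 beside 353525 in Sens IgG. In Res they had 19568 beside 1851 in the RIP, and 15292 beside 224945 in IgG.

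The IgG groups were compared between lines by edgeR's quasi-likelihood test over 1307 circRNAs, of which 67.6% were called, 49.3% higher and 18.3% lower in Res. DESeq2 called 340 in place of 883. Of the 14 Sens only circRNAs tested, 7 were called higher and 4 lower in Res, with a median log2 fold change of 1.75. Of the 33 Res only circRNAs tested, 19 were higher and 4 lower, with a median of 3.51, and over all tested circRNAs the median was 1.68. These values moved when 1 library was left out and the filter applied to the rest. A circRNA that passes only through the 3 Res IgG libraries fails when any of them is left out. The number tested fell from 1307 to 986, 983 and 975 without Res IgG replicates 1, 2 and 3. The median over all tested circRNAs was 0 in these 3 fits and up to 3.49 without another library. The Sens only median ranged from -0.45 without Res IgG replicate 3 to 3.55 without Sens RIP replicate 1 and was 0 without Res IgG replicate 1, and -0.048 and -0.061 without Sens RIP replicates 2 and 3. The Res only median ranged from 3.45 to 4.41. Sens only circRNAs called higher in Res numbered 3 without Res IgG replicate 3, and 4 without Res IgG replicate 1, Sens IgG replicate 1 or 3, or Sens RIP replicate 2. Res only circRNAs called lower numbered 1 without Res IgG replicate 3 or Res RIP replicate 3, and 2 without Res IgG replicate 1 or 2 or Sens IgG replicate 1 or 2. Across the fits without 1 library, 9 to 14 Sens only and 24 to 33 Res only circRNAs were tested. Of all tested circRNAs, 285 to 639 were called higher and 123 to 242 lower. With a replicate block, 2 of 14 Sens only circRNAs were higher and 4 lower. Of 33 Res only circRNAs, 14 were higher and 1 lower, where 530 and 207 of all 1307 were. With no filter the same numbers of members were called, but of 58 Sens only and 176 Res only circRNAs tested. Of all 6384 in that fit, 610 were higher and 223 lower. Under DESeq2 1 and 2 Sens only circRNAs and 6 and 1 Res only circRNAs were called higher and lower. Of all 1307, DESeq2 called 211 higher and 129 lower. In the main fit the members tested are not all members. Among them, 7 Sens only and 16 Res only circRNAs entered the fit through IgG counts alone, so their calls are no support for a difference, and the shares called lie near the background. In this fit the spread of each circRNA was taken wholly from the trend over all circRNAs, with infinite prior degrees of freedom.

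The members with the smallest p in IgG are described by their counts. Of the 4, hsa_circ_0078367, hsa_circ_0067990 and hsa_circ_0000033 entered the fit only through the IgG group in which they are high, so their adjusted p is given without weight. hsa_circ_0078367, Sens only with 2, 0 and 2 counts in Sens RIP replicates 1, 2 and 3, had 12, 8 and 10 counts in Res IgG and 0 in each Sens IgG library. Against a limit of 3 counts in Sens IgG, it was 5.10-fold higher in Res IgG by circRNA totals and 15.7-fold by spike-in totals. The edgeR adjusted p was 2.73e-06, between 3.49e-07 and 0.00148 under the alternatives. Its IgG counts were thus in the line where the RIP had none, in 3 of 3 libraries. hsa_circ_0067990, Sens only with 1, 2 and 1 counts, had 7, 4 and 10 in Sens IgG and none in Res IgG. Against a limit of 3 counts in Res IgG, it was 13.7-fold lower there by circRNA totals and 4.45-fold by spike-in totals. The edgeR adjusted p was 0.000105, between 8.96e-07 and 0.00287 under the alternatives. Here the RIP and IgG counts lay in the same line.

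Both Res only examples had their IgG counts in Res as well. hsa_circ_0079449 had 2, 4 and 2 counts in the Res RIP and 14, 13 and 14 in Res IgG, with 0 in the 6 Sens libraries. Against a limit of 3 counts in Sens IgG, it was 6.97-fold higher in Res IgG by circRNA totals and 21.5-fold by spike-in totals. The edgeR adjusted p was 1.58e-08, between 1.78e-09 and 0.000151 under the alternatives. hsa_circ_0000033 had all 4 of its RIP counts in Res RIP replicate 2 and 11, 4 and 13 counts in Res IgG. Against the same limit it was 4.76-fold higher in Res IgG by circRNA totals and 14.7-fold by spike-in totals. The edgeR adjusted p was 7.02e-06, between 7.38e-07 and 0.00696 under the alternatives. Both were at 0 in each Sens IgG library and were chosen by their p in this contrast, so the lack of overlap is no separate support. Of all 6384 circRNAs, 1090 (17.1%) had IgG counts in Res alone.

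Members with high IgG counts in both lines were seen too. hsa_circ_0000880, Sens only with 0, 3 and 1 RIP counts, had 11, 10 and 9 counts in Sens IgG and 3, 8 and 5 in Res IgG, and did not pass the test between the IgG groups (log2 fold change -0.89, SE 0.55, edgeR adjusted p = 0.157, between 0.00199 and 0.897 under the alternatives). hsa_circ_0007951, Res only with 2, 1 and 1 RIP counts, had 8, 4 and 17 in Sens IgG and 10, 10 and 12 in Res IgG. Its IgG groups overlapped, with a log2 fold change of 0.17 (SE 0.47, edgeR adjusted p = 0.970, between 0.125 and 1 under the alternatives) whose sign turned with column totals, with DESeq2 and without Sens IgG replicate 1 or 2. A circRNA read in the RIP of a single line was thus in the IgG of both for these members, as for 2 Sens only and 5 Res only circRNAs in all. These were 3.45% and 2.84% of the members, near the 2.40% of all circRNAs. Of circRNAs of the same RIP sums with counts in both lines, 3.94% were in the IgG of both.

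RIP and IgG were also set against each other within the own line, a comparison that shares its RIP counts with the rule and is a description. In Sens, 50% of tested circRNAs were called, 39.8% higher and 10.3% lower in the RIP, and 8 and 1 of the 14 Sens only circRNAs tested were. In Res, 59.7% were called, 33.7% higher and 26% lower, and 9 and 3 of the 33 Res only circRNAs tested were. Scaling turned the balance. With column totals, 1 of the 14 was called higher and 4 lower in Sens, where 164 of all 1307 were higher and 269 lower, and 7 of the 33 were higher and 9 lower in Res, where 381 of all were higher and 484 lower. With spike-in totals, all 14 and all 33 were called higher in the RIP, where 855 and 877 of all 1307 were, and none lower, also 0 at an unadjusted p under 0.05, on a scale whose median log2 fold change over the 1307 circRNAs was 7.63 in Sens (2.44 with TMM) and 6.01 in Res (0 with TMM).

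The submitters defined a delta enrichment as RIP minus IgG in RPM, Res minus Sens, and took a negative value as a loss of IGF2BP2 association on resistance. It was computed here with a library's circRNA counts as the denominator. For members without an IgG count its sign follows from the rule, and the values lay between -529 and -240 RPM for the 43 Sens only circRNAs and between 154 and 463 RPM for the 146 Res only circRNAs. For members with IgG counts, 6 of 15 Sens only circRNAs had a delta above 0 and 19 of 30 Res only circRNAs had one below 0, the sign opposite to their RIP counts. For circRNAs of the same RIP sums in both lines with IgG counts, 137 lay below 0 and 55 above. hsa_circ_0078367 had -2352 RPM, of which 2083 came from Res IgG and 270 from the Sens RIP. hsa_circ_0079449, present in the Res RIP only, had -2386 RPM, because its 399 RPM in the Res RIP stood against 2785 in Res IgG. These signs hold for circRNA totals as the denominator. With spike-in totals hsa_circ_0079449 was among the 33 Res only circRNAs tested, all called higher in the Res RIP than in Res IgG. The delta was not computed relative to the spike-in.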

How the data were processed

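The members, the comparison lists and the part of the table to describe were chosen with earlier results of these data known. The authors deposited raw counts per circRNA and per ERCC transcript for 12 libraries, whole numbers with 6384 circRNA rows and 57 ERCC rows. The genome build is GRCh37, per the submitters' processing notes. The aligner, the circRNA caller and the counting rule are not given in the sources used here, and a count may or may not be a back-splice read. Per the labels' protocols, equal amounts of RNA received the spike-in, and the authors scaled to it with RUVSeq, which these counts do not carry.

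ERCC rows, between 7.51% and 97.9% of a library's counts, were left out of totals and tests. An expected number is the sum over circRNAs of the Sens share (or the Res share) of RIP circRNA counts raised to the circRNA's RIP sum. The 1307 circRNAs that reached 2 counts in 3 or more libraries entered edgeR 4.0.16 (R 4.3.3) with TMM factors and 1 quasi-likelihood fit over 12 libraries, 1 coefficient per group, and Benjamini-Hochberg adjustment at 0.05. The procedure was first tested on simulated counts drawn from a pooled profile at a fixed spread. That setting lacks most of the differences between the real groups, so it does not show how the test performs on them. A fold against a group at 0 was computed against 3 counts over that group. The other group's counts were taken as exact, so such a fold is not a lower bound. Ranges of adjusted p cover 18 alternatives per circRNA, DESeq2 1.42.0 among them.

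Named members were, per line, the 2 with the highest RIP sum among those in all 3 libraries without an IgG count, the 2 with the smallest p in IgG and the 2 with the most IgG counts. Replicate libraries of a group differed beyond sampling noise for circRNAs with at least 4 counts in a pair (chi-square per degree of freedom 1.26 to 1.80), so none were merged. With at least 10 counts, Sens RIP replicates 2 and 3 did not (chi-square test, p = 0.146).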

Additional observations from a re-analysis of the deposited data

How the results depend on the processing

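Across 22 results, 245 of 324 alternative values kept their direction and their side of the threshold, or stayed within 1.5 times a count or within the counting interval of a ratio. The numbers of Sens only and Res only circRNAs were 144 and 392 with sums of 3 to 8 (2.22 and 2.29 times the expected numbers) and 8 and 41 with sums of 6 to 8 (6.70 and 5.54 times). The ratios to the expected numbers were 4.52 and 2.27 without the most abundant circRNA in the totals, and 4.73 and 2.20 without the 20 most abundant. With each library as 1 draw they were 0.579 and 0.965, below 1, and with libraries drawn without replacement, an alternative chosen after seeing the data, 1.07 and 1.60. Leaving out 1 RIP library gave 20 to 94 Sens only circRNAs (1.91 to 7.47 times) and 74 to 262 Res only circRNAs (2.18 to 5.83 times).

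For the IgG groups, DESeq2 called 340 circRNAs in place of 883, and leaving out 1 library gave 504 to 881. Between the RIP groups, 31 calls became 20 with DESeq2, 58 with spike-in totals, 17 with no filter and 16 to 32 without 1 library. RIP against IgG gave 220 calls in each line with DESeq2, against 654 in Sens and 780 in Res. In Sens there were 433 with column totals, 380 with no filter and 372 to 631 without 1 library, and in Res 398 to 803 without 1 library. The IgG log2 fold change of hsa_circ_0007951 was -0.80 with column totals, -0.054 with DESeq2 and -0.34 to 0.47 without 1 library. Leaving out 1 library also changed which circRNAs passed the filter, with 975 to 1253 tested in place of 1307. The causes of these shifts were not tested.

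Same-numbered libraries showed no shared deviation (correlations between -0.052 and 0.050 over 18 pairs). At these low counts sampling noise can hide one, so whether the numbers pair the libraries cannot be decided. With the number as a replicate block, the calls were 17 between the RIP groups and 737 between the IgG groups. The number of members seen in each line's IgG kept within 1 of its value in all alternatives tried. Depth limits each member to 4 to 8 RIP reads.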

Other observations

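Beyond the window, circRNAs with higher RIP sums in a single line were few. At a sum of 10 there were 1 Sens only and 3 Res only circRNAs of 66, at 11 there were 1 and 3 of 49, and at 12 there were 0 and 1 of 40. Line totals give 0.0144 and 0.238 at a sum of 10. Below the window, at a sum of 2, 290 circRNAs were Sens only and 519 Res only of 1125, against 208.3 and 365.1 expected.

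Relative to the spike-in, Sens only circRNAs held 0.294 ± 0.0241 counts per 1000 ERCC counts in Sens IgG and 0.484 ± 0.0292 in Res IgG (SD, n = 3). Res only circRNAs held 0.307 ± 0.0283 and 1.51 ± 0.201 (SD, n = 3). In the RIP of the own line the values were 139 ± 35.4 for Sens only and 471 ± 95.4 for Res only (SD, n = 3). circRNAs of the same RIP sums with counts in both lines showed the same kind of gap. They held 833 ± 72.5 in the Sens RIP and 2.48 ± 0.0965 in Sens IgG (SD, n = 3). In Res they held 1203 ± 240.5 in the RIP and 8.72 ± 0.206 in IgG (SD, n = 3).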
